A study of Mus musculus with 4 samples.

Results

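The proteasome and immunoproteasome subunit genes were taken as all genes on the arrays whose mouse symbol begins with Psm, a letter from a to g and a digit. They were 50 of the genes measured, on 61 probes, and 48 of them were bright enough to be tested among 24565 features in all. Total RNA had been compared from the ipsilateral cortex of C57BL/6 mice aged 8 weeks, taken 24 h after permanent closure of the left middle cerebral artery (pMCAO), a model of ischaemic stroke that both genotypes had undergone. The genotypes were Ndrg2KO, a knockout of the N-myc downstream regulated gene Ndrg2, and wild type, with 4 samples each. What was deleted in Ndrg2, in which cells, and whether a sample was 1 animal are not stated in the labels, so a p-value measures the spread among these samples alone and that spread may be technical. Each of 4 2-colour arrays, all on 1 slide, held a knockout-labelled sample in Cy3 and the wild-type sample of the same number in Cy5. The dyes were never swapped, so a dye effect of a single probe and the genotype cannot be told apart.

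The Ndrg2 probe had log2 intensities of 15.50, 15.56, 15.57 and 15.56 in the knockout-labelled samples, against 15.72, 15.78, 15.75 and 15.67 in the wild-type samples. The groups did not overlap, but the probe stayed among the bright ones in every knockout-labelled sample. Its log2 ratio, knockout-labelled over wild type, came to -0.18 ± 0.052 (SD, n = 4; limma, adjusted p = 0.0248), and it was -0.043 (limma, adjusted p = 0.529) on the scanner software's own scale. All ratios given are log2 ratios of this kind unless a scale is named. Whether the probe lies within the deleted part is not known, and it did not show a large loss, so the samples are called knockout-labelled throughout. Of the 43020 spots of an array, 73.6 to 74.9% were well above background in Cy3 and 76.7 to 79% in Cy5, and none was saturated. Across all features the log ratios of arrays 1 and 2 (r = 0.73) and of arrays 3 and 4 (r = 0.63) were more alike than those of other pairs (r = 0.41 to 0.48). Of marker genes for the cells of cortex, all 7 neuronal, 6 astrocyte, 4 oligodendrocyte and 8 microglial genes looked at were bright enough to be tested.

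The proteasome breaks down proteins that carry chains of ubiquitin. Its 20S core is a barrel of alpha rings, which gate the entrance, around beta rings, of which Psmb5, Psmb6 and Psmb7 are the catalytic members. The 19S particle caps the barrel: its Psmc ATPases unfold the substrate, and its Psmd subunits bind and trim the ubiquitin chains. Interferon-gamma exchanges the catalytic members for Psmb8, Psmb9 and Psmb10 and adds the activator made of Psme1 and Psme2, which together make the immunoproteasome, known for producing peptides that class I molecules present. In the injured brain it is mostly linked to microglia and invading leukocytes, while neurons rely on the constitutive form.

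The stretches just before 4 of these genes are shown because the results turn on them: Psmb8 and Psmb9, the inducible catalytic subunits that lie on either side of the peptide transporter gene Tap1 on chromosome 17, Psmb5, the constitutive counterpart of Psmb8, and Psme3, the member with the lowest ratio after loess normalization. Each is the 250 bases before the gene's start from RefSeq (assembly GRCm38.p6), 5′ to 3′ on the gene's strand. Capitals mark the match to TTCNNNGAA (the GAS element bound by STAT proteins) in Psmb8, from base -97 to -89 before the start, and the match to TGACNNNGC (the core of the antioxidant response element) in Psmb5, from -47 to -39. Psmb9 and Psme3 held no match to these or to the core of the interferon-stimulated response element (GAAA, 2 bases of any kind and GAAA again) in this window.
Psmb8, chr17:34197945-34198194, plus strand: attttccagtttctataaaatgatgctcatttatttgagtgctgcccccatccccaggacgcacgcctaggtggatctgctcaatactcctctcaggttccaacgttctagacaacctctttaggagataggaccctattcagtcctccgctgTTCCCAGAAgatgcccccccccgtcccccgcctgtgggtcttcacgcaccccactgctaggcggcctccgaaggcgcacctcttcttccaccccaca
Psmb9, chr17:34187331-34187580, minus strand: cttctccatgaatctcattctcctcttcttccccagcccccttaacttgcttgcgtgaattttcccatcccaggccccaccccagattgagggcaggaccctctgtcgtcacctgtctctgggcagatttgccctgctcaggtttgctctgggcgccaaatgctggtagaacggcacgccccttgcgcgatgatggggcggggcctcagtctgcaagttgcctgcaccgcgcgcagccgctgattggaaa
Psmb5, chr14:54617996-54618245, minus strand: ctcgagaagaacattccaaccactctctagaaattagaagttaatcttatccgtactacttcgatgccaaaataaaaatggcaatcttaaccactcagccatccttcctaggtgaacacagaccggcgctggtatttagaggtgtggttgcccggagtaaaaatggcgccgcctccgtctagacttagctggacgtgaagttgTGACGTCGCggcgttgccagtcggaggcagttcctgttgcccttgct
Psme3, chr11:101315963-101316212, plus strand: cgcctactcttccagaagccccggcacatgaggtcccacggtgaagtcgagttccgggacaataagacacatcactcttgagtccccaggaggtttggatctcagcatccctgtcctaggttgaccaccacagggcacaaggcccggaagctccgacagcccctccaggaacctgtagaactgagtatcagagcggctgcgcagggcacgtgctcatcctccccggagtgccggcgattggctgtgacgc

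The 3 motifs were looked for on both strands in the promoters of 42 of the 50 members, from 250 bases before to 50 after the start. The GAS letters were in 3 of the 42 (7.14%), Psmb8, Psmd2 and Psmg1, beside 9.55% of all 27025 genes with a promoter. The letters of the interferon-stimulated core were in 5 of the 42 (11.9%), beside 3.99% of all genes. Those 5 were Psmb3, Psmd4, Psmd9, Psmg4 and Psme1, where TTTCGCTTTC lies at bases 9 to 18 after the start, on the opposite strand. The antioxidant core was in 6 of the 42 (14.3%), beside 14% of all genes. It was in 4 of the 25 constitutive subunits with a promoter and in 0 of the 5 immunoproteasome genes. A match is a description of letters and not a binding site.

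Of the 48 members tested, 15 were called higher and 4 were called lower in knockout-labelled cortex at an adjusted p under 0.05 (limma, Benjamini-Hochberg over all 24565 features), and 29 did not pass. Among all features 8.63% were called higher and 12.7% lower. At an unadjusted p under 0.05 the counts were 21 and 4, beside 15.2% of all features higher and 22.1% lower at that p. The groups did not overlap for 24 members, 21 with the knockout-labelled samples above and 3 with them below, beside 9.05 and 10.6% of all features. The median log2 ratio of the members was 0.081, against -0.019 over all features. Psma8 and Psmb11, core subunits of testis and thymus, were not well above background in either channel on any array and have no value. Psmc3ip and Psme3ip1 match the symbol pattern but are no subunits, and neither passed. The differences were small: the median size of a passing change over all features was 0.23.

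The zero point of these ratios depended on the normalization, and this bears on every direction that follows. Median centring in place of loess moved the median of all features to -0.18 and left 0 members higher (limma; also 0 at an unadjusted p) and 39 lower, beside 25.8% of all features called higher and 53.6% called lower on that scale, so every call of a higher member was lost, 13 of the 15 with the sign turned. On the scanner software's scale 10 of the 15 were still called higher, and Psma4, Psma6, Psmd2, Psmd6 and Psmd12 were not. Bright probes moved most, and the subunits are bright: the middle 50% of the 31 constitutive subunits had mean log2 intensities of 13.4 to 15.1, where the 2169 features had a median of -0.45 under median centring and 0.032 under loess. Of the features in that window 96.8% were called lower under median centring, and so were 27 of the 31 constitutive subunits. Within that window of brightness 19.8% of features were called higher and 11.5% lower under loess, beside 12 higher and 2 lower of the 31 constitutive subunits. The constitutive subunits lay at a median of 0.11 above features of like brightness (bins 0.5 wide) after loess, a description added after the values were seen. The same value under median centring is no check of direction, because subtracting the median of such a bin removes what loess removes.

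**Figure D1:**
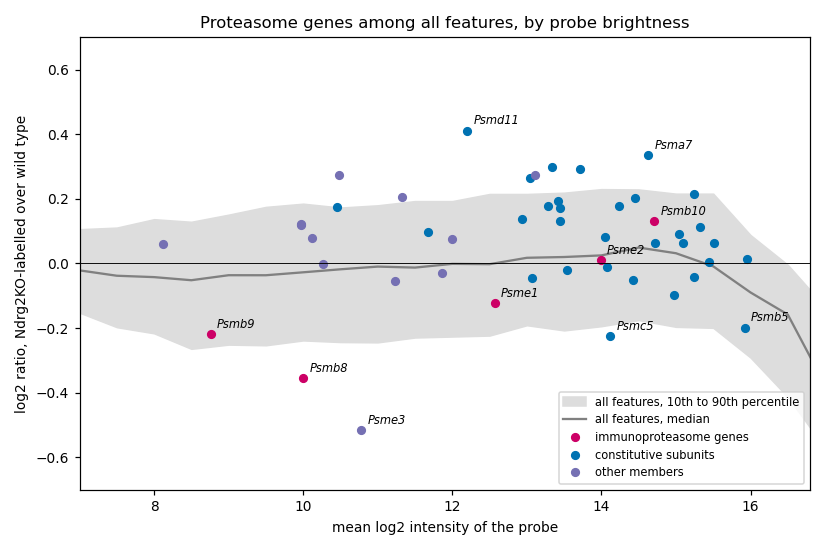
Log2 ratio, knockout-labelled over wild type (vertical axis, mean of 4 arrays) against mean log2 intensity of the probe (horizontal axis) for the 48 members, with the median and the 10th to 90th percentile of all features in grey, after loess. Most constitutive subunits lie to the right, above the grey line, while Psmb8 and Psmb9 lie to the left, below it. Under median centring most members lie below 0.

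Of the 7 alpha subunits of the 20S core 3 were higher, none lower, and the median was 0.082 with loess. The brightness window of the constitutive subunits had 19.8% of features higher and 11.5% lower. Psma7, the alpha subunit with the largest ratio, had log2 intensities of 14.85, 14.84, 14.79 and 14.70 in the knockout-labelled samples, against 14.47, 14.39, 14.50 and 14.48 in the wild-type samples. Every knockout-labelled sample was above every wild-type one. Its ratio was 0.33 ± 0.10 (SD, n = 4; limma, adjusted p = 0.0075), 1.26-fold higher, and -0.19 with median centring. Psma4 had log2 intensities of 13.39, 13.38, 13.31 and 13.37 in the knockout-labelled samples, against 13.15, 13.17, 13.20 and 13.23 in the wild-type samples. Its groups did not overlap. The ratio was 0.18 ± 0.062 (SD, n = 4; limma, adjusted p = 0.0303), and a second probe for it gave 0.16 (limma, adjusted p over probes 0.033). Psma6 had log2 intensities of 13.48, 13.52, 13.54 and 13.57 in the knockout-labelled samples, against 13.32, 13.32, 13.35 and 13.44 in the wild-type samples. Again no sample of one group reached the other. Its ratio was 0.17 ± 0.031 (SD, n = 4; limma, adjusted p = 0.026). With each array left out in turn, Psma7 kept its call and Psma4 and Psma6 lost theirs every time, at adjusted p of 0.0552 to 0.103 and 0.061 to 0.0908. The lowest was Psma1, with log2 intensities of 13.96, 14.13, 14.08 and 14.08 in the knockout-labelled samples, against 14.04, 14, 14.11 and 14.13 in the wild-type samples. Its groups overlapped and its ratio was -0.0099 ± 0.094 (SD, n = 4; limma, adjusted p = 0.903). Psma2, Psma3 and Psma5 lay between 0.006 and 0.082 and did not pass.

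The 7 constitutive beta subunits held 2 higher, 1 lower and 4 that did not pass. These counts are not far from the 19.8% higher and 11.5% lower of features in the brightness window. Psmb1, a structural subunit of the beta ring, had log2 intensities of 13.80, 13.83, 13.87 and 13.91 in the knockout-labelled samples, against 13.55, 13.52, 13.55 and 13.62 in the wild-type samples. The groups were well apart. Its ratio was 0.29 ± 0.034 (SD, n = 4; limma, adjusted p = 0.00564), called whichever array was left out, and -0.14 with median centring. Psmb2, another structural subunit, had log2 intensities of 10.50, 10.51, 10.60 and 10.55 in the knockout-labelled samples, against 10.35, 10.24, 10.45 and 10.42 in the wild-type samples. Its groups did not overlap, and array 2 had the widest gap. The ratio was 0.18 ± 0.065 (SD, n = 4; limma, adjusted p = 0.0313), and the call was lost whichever array was left out (adjusted p of 0.0674 to 0.109). Psmb4 lay at 0.11 with groups that did not overlap but did not pass (limma, adjusted p = 0.108), and Psmb3 lay at 0.063.

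Psmb5, the chymotrypsin-like catalytic subunit, was called lower, but its probes disagreed. The brighter probe had log2 intensities of 15.76, 15.97, 15.74 and 15.82 in the knockout-labelled samples, against 15.98, 16.01, 16.02 and 16.07 in the wild-type samples. The groups did not overlap on it. Its ratio was -0.20 ± 0.11 (SD, n = 4; limma, adjusted p = 0.0367), at an intensity where all features already had a median of -0.09. The other probe, less bright, had ratios of 0.22, 0.22, 0.24 and 0.18 and a mean of 0.21 ± 0.026 (SD, n = 4; limma, adjusted p over probes 0.013). The mean over both probes was 0.007 (limma, adjusted p = 0.918), so no direction is given for Psmb5. Psmb6, the caspase-like subunit, had log2 intensities of 15.15, 15.30, 15.21 and 15.20 in the knockout-labelled samples, against 15.21, 15.20, 15.30 and 15.30 in the wild-type samples. Its groups overlapped. The ratio was -0.042 ± 0.095 (SD, n = 4; limma, adjusted p = 0.565), and 0.033 on the scanner software's scale. Psmb7, the trypsin-like subunit, had log2 intensities of 13.53, 13.49, 13.47 and 13.57 in the knockout-labelled samples, against 13.41, 13.39, 13.31 and 13.43 in the wild-type samples. Here too the groups were apart. The ratio of 0.13 ± 0.025 (SD, n = 4; limma, adjusted p = 0.0555) missed the threshold with loess and was -0.28 with median centring.

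Of the 5 immunoproteasome genes 1 was lower, none higher (1, Psmb10, at an unadjusted p), and 4 did not pass. With 12.7% of all features called lower and 8.63% higher, 1 of 5 is not far from the general share. The median ratio of the 5 was -0.12. Psmb8, which takes the place of Psmb5, had log2 intensities of 9.67, 9.64, 10.08 and 9.92 in the knockout-labelled samples, against 10.07, 10.36, 10.28 and 10.02 in the wild-type samples. Array 3 was high in the knockout channel, and the groups overlapped. The ratios of the 4 arrays were -0.40, -0.72, -0.20 and -0.10, all below 0, with arrays 1 and 2 furthest from it. The mean for Psmb8 was -0.35 ± 0.27 (SD, n = 4; limma, adjusted p = 0.0387), 1.28-fold lower. The call was lost without array 1, 2 or 3 (adjusted p up to 0.119), on the scanner software's scale (0.111) and with a background offset of 10 (0.069). Without array 2 the ratio was -0.23.

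Psmb9, the partner of Psmb8 that takes the place of Psmb6, had log2 intensities of 8.58, 8.57, 8.80 and 8.65 in the knockout-labelled samples, against 8.71, 9.18, 8.85 and 8.73 in the wild-type samples. Wild-type sample 2 stood above all others, and the groups overlapped. The ratios were -0.13, -0.61, -0.052 and -0.078, with a mean of -0.22 ± 0.27 (SD, n = 4; limma, adjusted p = 0.137), which did not pass; without array 2 it was -0.086. Psmb10, which takes the place of Psmb7, had log2 intensities of 14.79, 14.77, 14.74 and 14.79 in the knockout-labelled samples, against 14.56, 14.60, 14.70 and 14.70 in the wild-type samples. All knockout-labelled samples were above the wild-type ones, the opposite side from Psmb8 and Psmb9. Its ratio of 0.13 ± 0.08 (SD, n = 4; limma, adjusted p = 0.0868) did not pass either, and it was -0.40 with median centring.

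Psme1, the alpha subunit of the interferon-inducible activator, was measured by 10 spots of 1 probe per array and had log2 intensities of 12.43, 12.38, 12.61 and 12.62 in the knockout-labelled samples, against 12.58, 12.67, 12.63 and 12.63 in the wild-type samples. Knockout-labelled samples 1 and 2 were low, samples 3 and 4 level with wild type. The 10 spots gave mean ratios of -0.16, -0.29, -0.026 and -0.017 with an SD over spots of 0.022 to 0.08, and on array 3 single spots ran from -0.23 to 0.047. The mean was -0.12 ± 0.13 (SD, n = 4; limma, adjusted p = 0.162) and did not pass. Psme2, the beta subunit, had log2 intensities of 13.98, 14.07, 13.97 and 13.98 in the knockout-labelled samples, against 13.97, 14.02, 14 and 13.97 in the wild-type samples. The groups overlapped, with all samples within a narrow range. The ratio was 0.011 ± 0.033 (SD, n = 4; limma, adjusted p = 0.867); a second probe gave -0.00019.

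**Figure D2:**
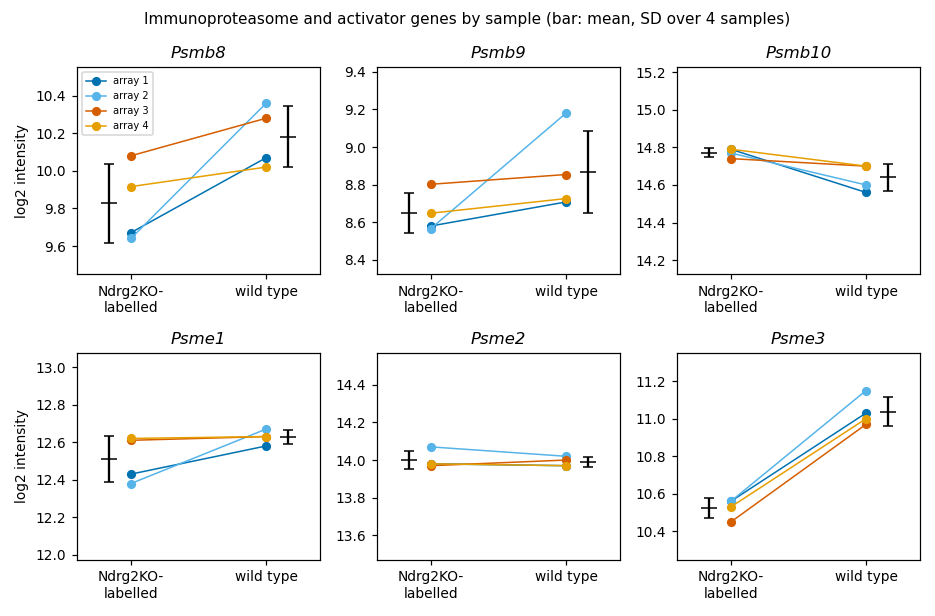
Log2 intensity of the 5 immunoproteasome genes and Psme3 (vertical axis, after loess and scaling between arrays) in knockout-labelled samples (left) and wild-type samples (right), with lines joining the samples of an array and bars for mean ± SD of 4 samples. Psme3 separates on all 4 arrays, Psmb8 is lower mainly on arrays 1 and 2 and Psmb9 mainly on array 2. Psmb10 lies slightly higher in the knockout-labelled samples.

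The immunoproteasome genes were set beside the 31 constitutive subunits array by array. Their median minus the constitutive median was -0.24, -0.48, -0.031 and -0.11 on arrays 1 to 4, with a mean of -0.22 ± 0.20 (SD, n = 4). It was below 0 on each array, about as large on average as its spread, and gets no test, since the members were chosen with earlier results of these data known. With median centring it was -0.10, and without array 2 it was -0.13. In the exchanged pairs, the Psmb8 ratio minus that of Psmb5 was -0.16 ± 0.38 (SD, n = 4), with array 2 at -0.68 and arrays 3 and 4 above 0, when the brighter Psmb5 probe was used. With the less bright Psmb5 probe, an alternative added after the values were seen, it was -0.62, -0.93, -0.44 and -0.28 on arrays 1 to 4, a mean of -0.57 ± 0.28 (SD, n = 4), so whether this pair differed beyond its spread depended on the Psmb5 probe. Psmb9 minus Psmb6 gave -0.18 ± 0.36 (SD, n = 4), with -0.71 on array 2 and values near 0 on the others. Psmb10 minus Psmb7 gave -0.0001 ± 0.10 (SD, n = 4). For the Psmb9 and Psmb10 pairs the mean was not larger than its spread.

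The 6 ATPases of the 19S base had a median of -0.031. None was higher (also none at an unadjusted p), 1 was lower and 5 did not pass, beside 8.63% higher and 12.7% lower of all features. Psmc5, the lowest, had log2 intensities of 14.02, 13.98, 14.05 and 13.99 in the knockout-labelled samples, against 14.23, 14.30, 14.20 and 14.21 in the wild-type samples. All knockout-labelled samples lay below all wild-type ones. Its ratio was -0.22 ± 0.076 (SD, n = 4; limma, adjusted p = 0.0175), 1.17-fold lower; it was -0.16 (adjusted p = 0.0658) on the scanner software's scale, and without array 1, 2 or 4 it missed the threshold at adjusted p up to 0.0672. Psmc1, the highest, had log2 intensities of 15.63, 15.63, 15.44 and 15.46 in the knockout-labelled samples, against 15.48, 15.40, 15.52 and 15.51 in the wild-type samples. The ratio was above 0 on arrays 1 and 2 and below 0 on arrays 3 and 4. Its mean was 0.062 ± 0.15 (SD, n = 4; limma, adjusted p = 0.506). Psmc6, which lies on chromosome 14 like Ndrg2, had log2 intensities of 12.96, 13.10, 12.98 and 13.17 in the knockout-labelled samples, against 13.11, 12.95, 13.17 and 13.14 in the wild-type samples. Its groups overlapped and its ratio was -0.043 ± 0.16 (SD, n = 4; limma, adjusted p = 0.655). Psmc2 and Psmc4 lay below 0 and did not pass. The brighter probe of Psmc3 gave 0.015, while a second one gave 0.21 (limma, adjusted p over probes 0.0144).

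The 11 non-ATPase subunits of the 19S particle had the highest median of any class with loess, 0.19. Of these 7 were higher, none lower and 4 did not pass, beside 19.8% higher and 11.5% lower of features in the brightness window. Psmd11, a scaffold subunit of the lid that sits against the core, had log2 intensities of 12.49, 12.51, 12.36 and 12.28 in the knockout-labelled samples, against 12.11, 12.03, 11.97 and 11.88 in the wild-type samples. No knockout-labelled sample reached down to wild type. Its ratio was 0.41 ± 0.049 (SD, n = 4; limma, adjusted p = 0.0024), 1.33-fold higher, a ratio that 0.659% of all features exceeded, and 0.075 (adjusted p = 0.236) with median centring. Psmd13, a lid subunit, had log2 intensities of 13.46, 13.47, 13.48 and 13.53 in the knockout-labelled samples, against 13.17, 13.12, 13.19 and 13.26 in the wild-type samples. No knockout-labelled value reached the wild-type range. Its ratio was 0.30 ± 0.034 (SD, n = 4; limma, adjusted p = 0.00539). Psmd7, the lid subunit that pairs with the deubiquitinase Psmd14, had log2 intensities of 13.23, 13.13, 13.14 and 13.18 in the knockout-labelled samples, against 13, 12.85, 12.90 and 12.86 in the wild-type samples. Again the groups were separate. The ratio was 0.26 ± 0.041 (SD, n = 4; limma, adjusted p = 0.0083), and both Psmd13 and Psmd7 kept their calls whichever array was left out but turned sign with median centring.

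Psmd3, another lid subunit, had log2 intensities of 15.27, 15.36, 15.35 and 15.41 in the knockout-labelled samples, against 15.04, 15.13, 15.18 and 15.18 in the wild-type samples. The groups did not overlap. The ratio was 0.21 ± 0.026 (SD, n = 4; limma, adjusted p = 0.0131), and without array 2 it missed the threshold (adjusted p = 0.0536). Psmd12 had log2 intensities of 14.53, 14.65, 14.51 and 14.55 in the knockout-labelled samples, against 14.38, 14.31, 14.39 and 14.34 in the wild-type samples. Its gap was widest on array 2. The ratio was 0.20 ± 0.095 (SD, n = 4; limma, adjusted p = 0.0285), and a second probe gave 0.084 (limma, adjusted p over probes 0.191). Psmd6, the lid subunit on chromosome 14, had log2 intensities of 13.49, 13.49, 13.50 and 13.60 in the knockout-labelled samples, against 13.36, 13.29, 13.30 and 13.36 in the wild-type samples. All its knockout-labelled samples were above wild type. Its ratio was 0.19 ± 0.047 (SD, n = 4; limma, adjusted p = 0.0203). Psmd2, the large base subunit that docks ubiquitin shuttles, had log2 intensities of 14.33, 14.26, 14.32 and 14.36 in the knockout-labelled samples, against 14.12, 14.06, 14.19 and 14.19 in the wild-type samples. Knockout-labelled and wild-type values were apart. The ratio was 0.18 ± 0.041 (SD, n = 4; limma, adjusted p = 0.0244), and whichever array was left out Psmd2 and Psmd12 missed the threshold (adjusted p of 0.0533 to 0.0966), as Psmd6 did without array 2, 3 or 4.

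The lowest of the class was Psmd1, the other large base subunit, with log2 intensities of 14.45, 14.48, 14.30 and 14.34 in the knockout-labelled samples, against 14.46, 14.40, 14.45 and 14.45 in the wild-type samples. Its groups overlapped, and arrays 3 and 4 were below 0. The ratio was -0.051 ± 0.11 (SD, n = 4; limma, adjusted p = 0.507). Psmd4, the ubiquitin receptor, lay at 0.091, Psmd14 at 0.096 and Psmd8 at 0.14, and none of them passed. Sorted by place in the particle, a grouping made after the values were seen, 6 of the 8 lid subunits were higher and 2 did not pass. Of the 6 ATPases none was higher. In the brightness window of the constitutive subunits 19.8% of features were called higher with loess, so none of 6 is not far from that share. The ATPase count also rests on the brightest probe. The less bright probes gave 0.21 for Psmc3 (limma, adjusted p over probes 0.0144) and 0.13 for Psmc1 (0.099). With median centring the 6 lid subunits that passed, other than Psmd11, had ratios below 0.

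**Figure D3:**
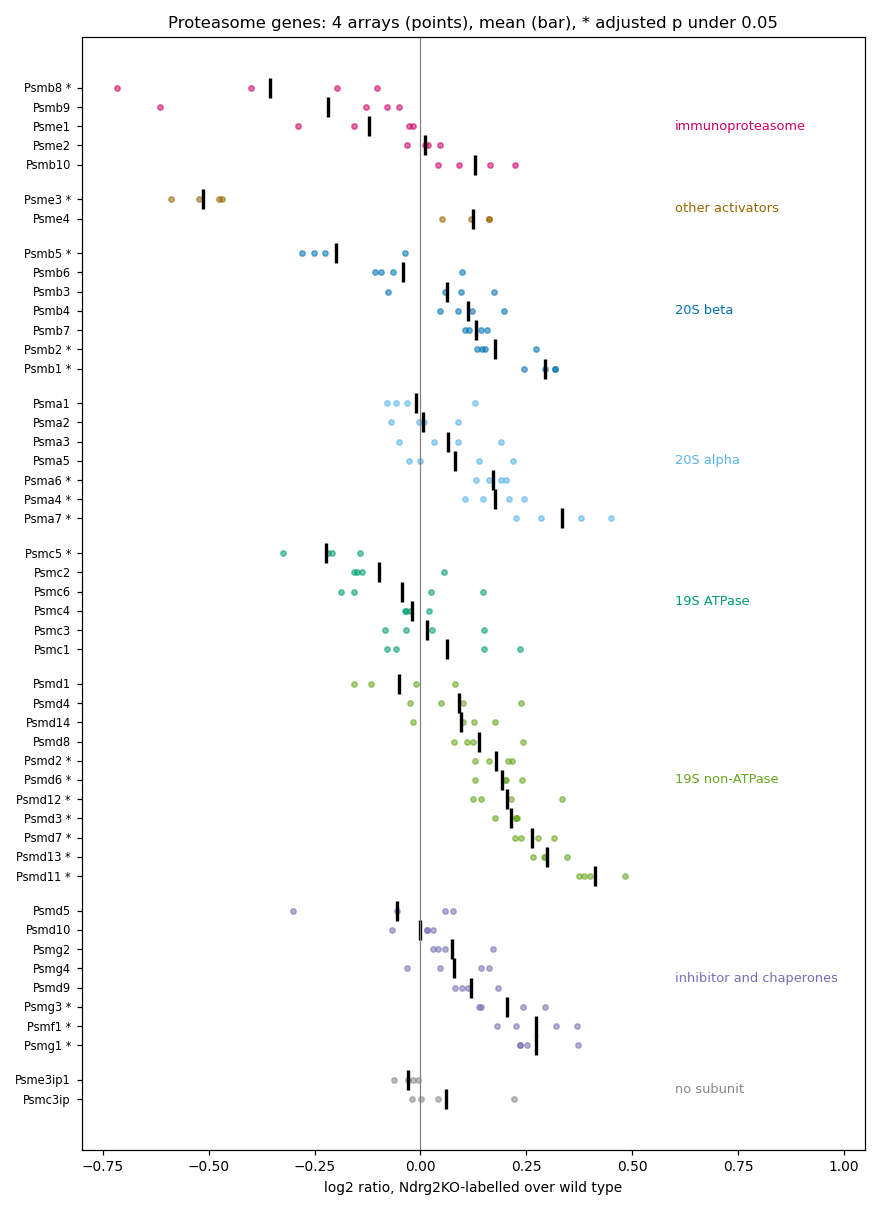
Log2 ratio, knockout-labelled over wild type (horizontal axis, loess) for each of the 48 members tested (rows, by class), with 1 point per array, a bar at the mean and a star at an adjusted p under 0.05. The non-ATPase 19S rows lie mostly right of 0, the ATPase rows around it, and Psme3 and Psmb8 furthest left; with median centring 39 of the 48 are called lower.

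Among the activators outside the immunoproteasome, Psme3 was the lowest of all members with loess. Psme3, the nuclear activator that opens the core without ubiquitin, had log2 intensities of 10.56, 10.56, 10.45 and 10.53 in the knockout-labelled samples, against 11.03, 11.15, 10.97 and 11 in the wild-type samples. The groups were clearly apart, with the highest knockout-labelled sample below the lowest wild-type one. Its ratio was -0.51 ± 0.056 (SD, n = 4; limma, adjusted p = 0.00159), 1.43-fold lower, with arrays at -0.47, -0.59, -0.52 and -0.48. Of all features tested, 0.594% had a lower ratio. Psme3 was the only member whose call held under all 13 alternatives, with ratios from -0.80 to -0.49. The 13 are not separate checks. The scanner software's log ratio and the deposited series matrix gave it the same value. The mean over probes cannot change a gene with 1 probe, and changes of the filter left its ratio at -0.51. With median centring the brighter Psmb5 probe, at -0.86, was lower than Psme3. Psme4, the large activator known from chromatin and testis, had log2 intensities of 10.06, 10.05, 10.02 and 10 in the knockout-labelled samples, against 9.94, 9.89, 9.97 and 9.84 in the wild-type samples. The groups were separate. The ratio was 0.12 ± 0.052 (SD, n = 4; limma, adjusted p = 0.0767) and did not pass, and its second probe gave 0.018.

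Of the inhibitor Psmf1 and the 7 assembly chaperones, 3 were higher, none lower, and 5 did not pass, beside 8.63% higher and 12.7% lower of all features. Psmf1, which binds the core and blocks it in the test tube, had log2 intensities of 10.77, 10.61, 10.47 and 10.64 in the knockout-labelled samples, against 10.40, 10.29, 10.29 and 10.41 in the wild-type samples. The groups did not overlap. Its ratio was 0.27 ± 0.086 (SD, n = 4; limma, adjusted p = 0.011), and 0.0044 with median centring. Psmg1, a chaperone of the alpha ring, had log2 intensities of 13.24, 13.24, 13.24 and 13.27 in the knockout-labelled samples, against 12.99, 12.87, 13.01 and 13.04 in the wild-type samples. The knockout-labelled samples were nearly level and all above wild type. The ratio was 0.27 ± 0.067 (SD, n = 4; limma, adjusted p = 0.00916), and a second probe gave 0.13 (limma, adjusted p over probes 0.0632). Psmg3, a chaperone of the same step, had log2 intensities of 11.49, 11.43, 11.41 and 11.35 in the knockout-labelled samples, against 11.25, 11.14, 11.27 and 11.21 in the wild-type samples. No overlap was seen between its groups. The ratio was 0.21 ± 0.076 (SD, n = 4; limma, adjusted p = 0.0224); Psmg1 and Psmg3 turned sign with median centring, and Psmg3 missed the threshold without array 1, 2 or 3 (adjusted p of 0.0501 to 0.0846). The lowest was Psmd5, a chaperone of the 19S base, with log2 intensities of 10.99, 11.16, 11.29 and 11.37 in the knockout-labelled samples, against 11.29, 11.22, 11.23 and 11.29 in the wild-type samples. Knockout-labelled sample 1 was lowest and the groups overlapped. The ratio was -0.055 ± 0.17 (SD, n = 4; limma, adjusted p = 0.59). Psmd9 lay at 0.12 with groups that did not overlap, and Psmd10, Psmg2 and Psmg4 between -0.0017 and 0.08.

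Of the 11 members with a second probe bright enough to be kept, 9 had the same sign on both. The exceptions were Psmb5, above, and Psme2, which was near 0 on both. Psma4, Psmc2 and Psmg1 gave the same side on each probe, whereas for Psmc3 the less bright probe passed and the brighter did not.

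**Figure D4:**
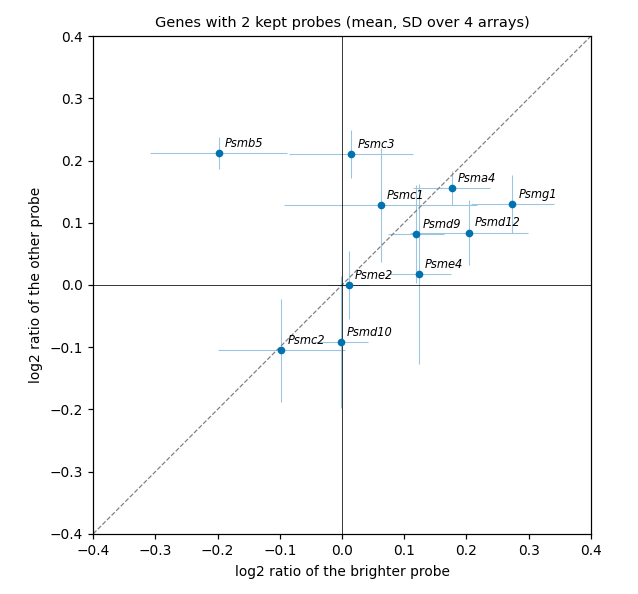
Log2 ratio of the less bright probe (vertical axis) against that of the brightest probe (horizontal axis) for the 11 members with both kept, as mean ± SD of 4 arrays, after loess. Psmb5 lies in the upper left, with -0.20 on the brighter probe and 0.21 on the other; the dashed line marks equal ratios.

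Genes that work with the proteasome were counted by lists that hold no member. Of 15 assembly factors, adaptors and regulators tested, 3 were higher and none lower with loess (4 and 1 at an unadjusted p), with a median of 0.0049. Among all features 8.63% were called higher and 12.7% lower. In the brightness window of the constitutive subunits the shares were 19.8% and 11.5%. Sem1, the small lid subunit, had log2 intensities of 15.24, 15.33, 15.27 and 15.28 in the knockout-labelled samples, against 15.03, 15.02, 15.09 and 15.07 in the wild-type samples. Its groups did not overlap, as for most lid subunits. The ratio was 0.23 ± 0.057 (SD, n = 4; limma, adjusted p = 0.0136). Nfe2l1, the transcription factor that raises proteasome genes when the proteasome is impaired, had log2 intensities of 10, 10.02, 10.02 and 10.16 in the knockout-labelled samples, against 9.82, 9.79, 9.89 and 9.88 in the wild-type samples. No knockout-labelled sample lay below a wild-type one. The ratio was 0.20 ± 0.069 (SD, n = 4; limma, adjusted p = 0.021); Sem1 and Nfe2l1 turned sign with median centring, to -0.35 and -0.035, and the call was lost without array 2 for Sem1 and without array 1, 2 or 4 for Nfe2l1. Ngly1, the enzyme that trims sugars from Nfe2l1, gave 0.17 ± 0.092 (SD, n = 4; limma, adjusted p = 0.0495) and held under 3 of the 13 alternatives. Akirin2, which carries proteasomes into the nucleus, gave 0.14 ± 0.05 (SD, n = 4; limma, adjusted p = 0.0586). Ddi2, the protease that releases Nfe2l1, the core chaperone Pomp and the receptor Adrm1 lay between -0.016 and 0.03, and Paaf1 was not measured by a named probe here.

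Of 14 genes for ubiquitin, its activating enzymes and its shuttles, 3 were higher and 2 lower, beside 8.63% and 12.7% of all features. Uba1, the main ubiquitin-activating enzyme, had log2 intensities of 15.01, 15.04, 14.83 and 14.95 in the knockout-labelled samples, against 15.34, 15.33, 14.95 and 15.26 in the wild-type samples. Sample 3 was the dimmest of each group, and the groups overlapped through the wild-type one. The ratio was -0.27 ± 0.097 (SD, n = 4; limma, adjusted p = 0.0134), but -0.12 (adjusted p = 0.159) on the scanner software's scale, and the call was lost under 5 of the 13 alternatives. The shuttle Ubqln2 gave -0.19 ± 0.08 (SD, n = 4; limma, adjusted p = 0.0281) and lost its call under 4 of the 13. Rad23b, a shuttle, was at 0.17 ± 0.039 (SD, n = 4; limma, adjusted p = 0.0272), and at 0.018 (adjusted p = 0.833) as the mean over its kept probes. Vcp, the segregase that pulls proteins from complexes, gave 0.17 ± 0.08 (SD, n = 4; limma, adjusted p = 0.0436), and its cofactor Ufd1 gave 0.14 ± 0.02 (SD, n = 4; limma, adjusted p = 0.0437). Rad23b was -0.14 and Vcp -0.415 with median centring. Rad23b lost its call under 6 other alternatives, each array left out among them, and Vcp under 9.

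Next along the immunoproteasome's path, of 12 peptide loading and class I genes 2 were lower and none higher. Among all features 12.7% were called lower and 8.63% higher. At an unadjusted p the counts were 7 and 1, where 22.1% and 15.2% of all features were lower and higher. The median of these 12 genes was -0.12. B2m, the light chain of class I, gave -0.22 ± 0.15 (SD, n = 4; limma, adjusted p = 0.0474), with the gap largest on array 2, and -0.14 without that array. H2-D1, a heavy chain, gave -0.20 ± 0.13 (SD, n = 4; limma, adjusted p = 0.0431). The call was lost under 10 of the 13 alternatives for B2m, each array left out among them, and under 7 for H2-D1. H2-K1, another heavy chain, gave -0.17 ± 0.11 (SD, n = 4; limma, adjusted p = 0.0609), and Pdia3, a chaperone of peptide loading, lay on the other side of 0 at 0.14 ± 0.059 (SD, n = 4; limma, adjusted p = 0.0532); neither passed. Tap1, which lies between Psmb9 and Psmb8, gave -0.067 ± 0.22 (SD, n = 4; limma, adjusted p = 0.574), and Tap2, on the far side of Psmb8, gave -0.018 ± 0.18 (SD, n = 4; limma, adjusted p = 0.873); neither passed. Of 10 interferon-gamma signalling genes tested 2 were lower and none higher (4 and 0 at an unadjusted p, beside those same shares of all features), with a median of -0.16, and Ifng itself was too dim to be tested. Stat2 gave -0.30 ± 0.22 (SD, n = 4; limma, adjusted p = 0.0361) and Jak2 gave -0.19 ± 0.088 (SD, n = 4; limma, adjusted p = 0.0331), and they lost the call under 5 and 7 of the 13 alternatives. Irf1, which drives Psmb8 and Psmb9 after interferon, had ratios of -0.33, -0.69, -0.083 and -0.13 and a mean of -0.31 ± 0.28 (SD, n = 4; limma, adjusted p = 0.0618). Irf9, close to Psme2 on chromosome 14, gave -0.36 ± 0.31 (SD, n = 4; limma, adjusted p = 0.0545). The median of the peptide loading and class I list was furthest below 0 on array 2 (-0.224), as was that of the immunoproteasome genes. The interferon-gamma median was nearly equal on arrays 1 and 2 (-0.242 and -0.247).

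Markers of other cells also differed on these arrays, where 8.63% of all features were called higher and 12.7% lower. In tissue, fewer cells of a type and less RNA per cell cannot be told apart, and their part in these results was not tested. Of 10 leukocyte markers 7 were tested and 1, Nkg7, was lower. Their median was -0.32, -0.36, -0.12 and 0.14 on arrays 1 to 4. The neutrophil gene S100a8 had ratios of -1.28, -1.18, -0.30 and 0.038, and S100a9 had -0.99, -1.18, -0.12 and 0.14. Both were far below 0 on arrays 1 and 2, but neither passed (limma, adjusted p = 0.0597 and 0.11). On arrays 1 and 2, Ptprc was at -0.324 and -0.364 and Ccr2 at -0.348 and -0.491. Cd3e was above 0 on both (0.185 and 0.155), and Itgal was at 0.128 and -0.183. Nkg7 was at -0.151, -0.252, -0.253 and -0.244 on arrays 1 to 4. The summed level of the 7 markers was 4743 to 11567 in the knockout-labelled samples, against 7216 to 10884 in the wild-type samples, on the linear intensity scale. Cd8a was not well above background, and Ly6c2 and Ly6g were not measured by a named probe here. Of 8 microglial markers 4 were lower, with a sum of 98900 to 109207 in the knockout-labelled samples and 113245 to 125962 in the wild-type samples. The median log2 ratio of the 8 was -0.099, -0.095 and -0.094 on arrays 1 to 3 and -0.21 on array 4. Of 6 astrocyte markers 2 were lower, none of 7 neuronal markers passed (1 higher and 1 lower at an unadjusted p), nor of 5 endothelial ones (1 and 3), and 1 of 4 oligodendrocyte markers was higher. The summed level was 52614 to 65294 in the knockout-labelled and 64020 to 68472 in the wild-type samples for astrocytes, 214769 to 239932 and 220722 to 226524 for neurons, 100321 to 147674 and 114373 to 123369 for oligodendrocytes, and 8404 to 11905 and 8913 to 10014 for endothelium.

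**Figure D5:**
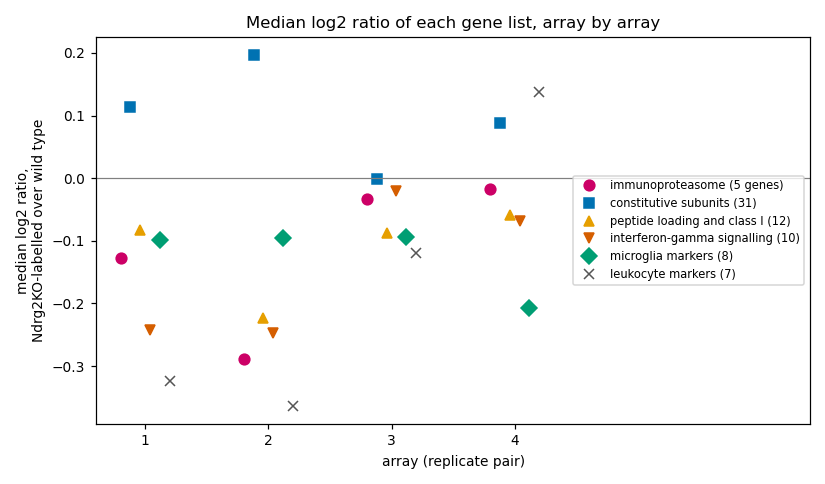
Median log2 ratio, knockout-labelled over wild type, (vertical axis, loess) of each gene list on each of the 4 arrays (horizontal axis), 1 symbol per list. The immunoproteasome median lies below the constitutive one on each array, furthest on array 2 (-0.29 against 0.20), and the interferon-gamma and leukocyte lists are also lower on arrays 1 and 2 than on arrays 3 and 4.

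Ndrg2 lies on chromosome 14, where 31% of 596 features tested passed in one direction or the other, against 21.3% of all features. Of the 5 members tested there, Psmd6 was higher, the brighter Psmb5 probe was lower, and Psmc6, Psme1 and Psme2 did not pass. In the order of coding genes, Psmb5 is 36 genes from Ndrg2, Psme1 68, Psme2 70, Psmc6 93 and Psmd6 350. DNA that came with the targeted allele and the loss of the gene cannot be told apart for these members.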

How the data were processed

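Total RNA (200 ng per sample, per the labels' protocols) was hybridised to 4 2-colour Agilent mouse arrays, 4 knockout-labelled samples in Cy3 and 4 wild-type samples in Cy5, grouped and numbered by the labels. Agilent Feature Extraction read the scans, as version 11.0.1.1 per the file headers and as 10.7.3.1 per the submitters' processing notes. The deposited signals of spot and background are linear intensities. The deposited log10 ratios are Cy5 over Cy3 after the software's own background subtraction and dye normalization, per the file headers. The series matrix deposited by the authors holds log2 values, which for all 39015 probes with a single spot equalled log2 of processed Cy5 over Cy3 within 0.001, so their direction, wild type over knockout, is the opposite of that used here. Their column medians were -0.053, -0.056, -0.038 and -0.031. The deposited flags (other values, 0 or 1) mark spots well above background, saturated or outlying, per the file headers.

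Median signals were corrected with normexp (offset 50) and normalized by loess within arrays (control spots had weight 0) with limma 3.58.1 under R 4.3.3. The 139 to 186 outlier spots per array were left out and spots of a probe averaged. Probes well above background in either channel on at least 3 arrays were kept, 30259 of 39429, and 27427 probes (69.6%) had a symbol through a RefSeq gene table of GRCm38.p6, used for names, gene order and promoters. The array design is on another build, mm9, per the file headers. The brightest probe stood for a gene. Levels in each channel are log2 intensities after loess and Aquantile. Log2 ratios were tested against 0 with lmFit and eBayes, so the array, which physically pairs 2 samples, was the block. The members, lists and motifs were chosen with earlier results of these data known. Values per sample are given for the immunoproteasome genes, their counterparts, members that passed, members on chromosome 14 and the extremes of each class, and up to 4 genes of each other list were taken by smallest p. Ddi2, Pomp, Adrm1, Ufd1, Tap1 and Tap2 were named after their values were seen. A listed gene is left out and not reported here. In simulated data with the spread of these 24565 features, the test found 9 of 50 changes of 1.2-fold, 43 of 50 of 1.5-fold, 47 of 50 of 2-fold and 50 of 50 of 4-fold, with 4 false calls. Far fewer features were changed in the simulation than the 21.3% that passed here. Its counts therefore do not give the sensitivity of the test on these data. Alternatives covered background, normalization, signal, filter, probe choice, pairing and each array left out. Proteins were not analysed here.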

Additional observations from a re-analysis of the deposited data

Results flagged for a closer look

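Of the 65 genes looked at, 8 had an array far from the other 3, where about 1 in 20 would do so by chance (3.25 here). The gap of the outlying array to the nearest other, as a share of the whole range, was 0.859 for Psmb2, 0.865 for Psmb9, 0.914 for Psmc2, 0.872 for Psmg1, 0.912 for Ngly1 and 0.86 for Stat2, each on array 2. The log2 ratio of Psmb9 was -0.61 there and averaged -0.086 elsewhere, with log2 intensities of 8.57 in knockout-labelled sample 2 and 9.18 in wild-type sample 2. Stat2 stood at -0.63 there, against -0.20 on the others. The remaining 4 lay above the other arrays: Psmb2 at 0.27 against 0.14, Psmg1 at 0.37 against 0.24, Ngly1 at 0.30 against 0.12 and Psmc2 at 0.055 against -0.15. Psmd10 stood out on array 1 (0.84), with -0.067 against 0.02, and Psmd3 on array 3 (0.917), with 0.18 against 0.23.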

How the results depend on the processing

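Over 42 genes named and 13 alternatives, 377 of 546 values kept their direction and side of the threshold, 133 lost and 10 gained the call, and 26 turned sign, 22 of them with median centring in place of loess. Median centring gave 6329 features higher and 13177 lower, 0 members higher and 39 lower, and 1 gene higher and 46 lower in the other lists, against 2120 and 3109, 15 and 4, and 6 and 6 with loess. The ratios that turned sign there were -0.22 for Psma4, -0.24 for Psma6, -0.19 for Psma7, -0.14 for Psmb1, -0.091 for Psmb2, -0.30 for Psmd12, -0.10 for Psmd13, -0.31 for Psmd2, -0.38 for Psmd3, -0.22 for Psmd6, -0.12 for Psmd7, -0.11 for Psmg1, -0.097 for Psmg3, -0.40 for Psmb10, -0.45 for Psme2, -0.28 for Psmb7, -0.35 for Sem1, -0.035 for Nfe2l1, -0.27 for Akirin2, -0.14 for Rad23b, -0.415 for Vcp and -0.20 for Pdia3. Features of like brightness moved with them. The scanner software's log ratio and the series matrix values gave 1751 features lower, 10 members higher and 1 lower (Psme3) and 3 genes lower in the other lists, with Psmb6 at 0.033. An offset of 10 left 2 members and 2 other genes lower. No filter on dim probes left 3 other genes higher. The mean over probes gave 0.00703 for Psmb5. The cause of these moves was not tested, except that for Psmb5 the probes differ.

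Without the replicate block, which treats the channels of an array as unpaired, 1261 features were higher and 1561 lower, 14 members higher and 2 lower (Psmb2, Psmb5 and Psmb8 lost their calls), and 2 other genes higher and 1 lower. Leaving out an array in turn, with 3 arrays left, gave 808 to 1264 features higher and 1219 to 1918 lower, 7 to 9 members higher and 1 to 2 lower, and 0 to 2 other genes higher and 0 to 3 lower. The immunoproteasome minus constitutive difference ranged from -0.28 to -0.13, and Psme2 from -0.0011 without array 2 to 0.026. Only 4 arrays were available, which limits precision. In simulated data 9 of 50 changes of 1.2-fold were found. Far fewer features were changed there than the 21.3% that passed here, which makes the adjustment of p stricter. That count therefore does not give the sensitivity of the test on these data.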
